A study of Mus musculus with 6 samples.

Results

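Genes by which the sebaceous gland makes and stores its lipids were compared between back epidermis of mice that had lost *Spry1* in the epidermis and back epidermis of mice that kept it. The set held 32 genes of the 54532 in the deposited table, chosen by name: markers of sebocytes, the lipid-making cells of the gland, and genes for wax esters, triglycerides, lipid droplets and the synthesis, modification and uptake of fatty acids. All 32 names were found in the table, and 30 of the genes reached the mean of 1 FPKM needed for testing, as did 12629 genes in all. FPKM is the number of sequenced fragments per kilobase of gene, scaled to the sequencing depth, so that levels of different genes can be set side by side.

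The knockout samples, labelled Spry1_KO, carried Spry1flox/flox and K14-Cre-ERT2, a tamoxifen-dependent Cre recombinase under the keratin 14 promoter. Control samples carried Spry1flox/flox without the recombinase. Both genotypes received tamoxifen by oral gavage for 4 weeks, in 4 doses a week of 0.1 mg per g, and each gave 3 RNA-seq samples of back epidermis. The labels state neither age nor sex, nor whether each sample is 1 mouse. The p-values therefore cover the spread among these 6 samples, part of which may be technical. The keratin 14 promoter is active in the basal layer of the epidermis, of the hair follicle and of the sebaceous gland. No sample carried the recombinase without floxed *Spry1*, so an effect of Cre and an effect of *Spry1* loss cannot be told apart.

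Sebaceous glands hang on hair follicles, and their cells fill with lipid, burst and release it as sebum onto hair and skin. Sebocytes make fatty acids from acetyl-CoA, lengthen and desaturate them, reduce part of them to fatty alcohols, and join acids and alcohols into wax esters. Triglycerides and sterol esters are built beside the waxes and kept in droplets until the cell breaks down. Many of the enzymes are shared with keratinocytes, which make barrier lipids, and with fat cells, so most of the 32 genes are not restricted to the gland.

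Several of the acyltransferases lie side by side on the X chromosome. In GRCm38 (GENCODE M21) *Awat2* spans chrX:100402221-100442717, minus strand, *Dgat2l6* spans chrX:100524838-100546144, plus strand, and *Awat1* spans chrX:100572251-100578205, plus strand. The windows around their start sites are shown with those of *Far1* (chr7:113513834-113571511, plus strand) and *Far2* (chr6:148047259-148182758, plus strand), because these genes make the alcohols and esters of sebum and differed in how evenly they were expressed between samples. Each window runs from 250 bases before to 50 bases after the start site on the strand of the gene, from RefSeq on GRCm38.p6. Capitals mark CCAAT or its reverse complement ATTGG.

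Awat1 (chrX:100571997-100572296, plus strand): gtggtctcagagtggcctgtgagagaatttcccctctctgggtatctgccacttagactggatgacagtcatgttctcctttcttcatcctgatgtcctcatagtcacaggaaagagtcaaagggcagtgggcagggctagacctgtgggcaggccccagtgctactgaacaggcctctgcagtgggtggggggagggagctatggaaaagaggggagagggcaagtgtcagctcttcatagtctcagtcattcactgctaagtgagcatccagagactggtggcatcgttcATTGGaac
Awat2 (chrX:100442668-100442967, minus strand): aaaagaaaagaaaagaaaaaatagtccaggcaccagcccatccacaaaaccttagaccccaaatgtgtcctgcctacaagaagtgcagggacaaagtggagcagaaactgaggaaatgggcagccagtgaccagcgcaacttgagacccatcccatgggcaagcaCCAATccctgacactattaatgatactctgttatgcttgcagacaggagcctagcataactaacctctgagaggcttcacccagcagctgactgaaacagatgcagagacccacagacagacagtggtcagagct
Dgat2l6 (chrX:100524588-100524887, plus strand): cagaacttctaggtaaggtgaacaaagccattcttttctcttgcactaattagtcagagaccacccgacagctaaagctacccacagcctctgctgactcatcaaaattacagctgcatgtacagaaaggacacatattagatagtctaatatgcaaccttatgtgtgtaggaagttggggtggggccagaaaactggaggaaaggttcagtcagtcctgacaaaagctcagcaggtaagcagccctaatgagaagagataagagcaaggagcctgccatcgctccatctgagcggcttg
Far1 (chr7:113513584-113513883, plus strand): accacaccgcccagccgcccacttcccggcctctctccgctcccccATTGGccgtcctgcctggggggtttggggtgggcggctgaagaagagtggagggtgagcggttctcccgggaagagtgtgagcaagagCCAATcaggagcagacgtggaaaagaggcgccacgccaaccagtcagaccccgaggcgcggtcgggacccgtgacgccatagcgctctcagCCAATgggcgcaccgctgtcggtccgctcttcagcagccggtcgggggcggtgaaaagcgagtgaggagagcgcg
Far2 (chr6:148047166-148047465, plus strand): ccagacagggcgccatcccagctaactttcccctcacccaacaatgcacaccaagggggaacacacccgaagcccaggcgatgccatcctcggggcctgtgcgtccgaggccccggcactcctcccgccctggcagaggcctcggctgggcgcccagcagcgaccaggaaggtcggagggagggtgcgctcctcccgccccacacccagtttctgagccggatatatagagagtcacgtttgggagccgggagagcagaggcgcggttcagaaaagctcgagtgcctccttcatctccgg

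The *Far1* window held 3 such matches, the *Awat2* window shown 1 at 85 bases before the start and the *Awat1* window 1 that lies after the start, while the *Dgat2l6* and *Far2* windows held none. A second *Awat2* window, chrX:100412538-100412837, also held 1, at 121 bases before its start, and is not shown. Of the 32 genes, 21 had windows in the RefSeq table, 28 windows in all, and 4 motifs were searched on both strands. CCAAT was found in 16 of the 28 windows (57.1%), against 37.4% of all 32851 windows. The half-site of nuclear receptors, AGGTCA, was found in 8 (28.6%), against 16.3% of all windows. The core letters of the promoter element TATAAA were found in 1 window (3.57%), against 13.6% of all, and the palindrome CACGTG of basic helix-loop-helix factors in 2 (7.14%), against 7.15%. In the *Fasn* windows CCAAT and ATTGG matches overlapped each other. These matches describe letters in the windows and were not read as binding sites.

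*Spry1* itself read 1.06, 1.49 and 1.28 FPKM in the knockouts and 25.8, 28.2 and 34.4 FPKM in the controls, a log2 fold change of -3.74 ± 0.13 (SE; limma adjusted p = 7.21e-06), so the labels held in all 6 samples. Reads recovered from the FPKM values numbered 18383321 to 21024714 per sample. The genotypes differed widely: 54.0% of the 12629 genes tested passed the threshold. Keratinocyte markers had the highest summed levels of the marker lists in every sample, and both sebocyte markers, *Scd1* and *Awat2*, were detected in every sample. Control replicate 3 stood apart from the other controls for many of the members, and values without it are given beside the members it moved. Under TPM scaling, which divides every sample by its own FPKM sum, the median log2 fold change of all genes moved by -0.24, with 2057 genes higher and 4455 lower in place of 3736 and 3079. Scaling to the recovered reads moved it by -0.11, with 2900 higher and 3743 lower.

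Carriers and importers of fatty acids, the elongase *Elovl3* and part of the wax ester genes were higher in the knockouts, while *Dgat2*, *Plin3* and *Srebf1* were lower. Of the 30 tested members, 12 rose and 3 fell by limma on log2(FPKM + 1) at a Benjamini-Hochberg adjusted p under 0.05. That is 40.0% higher and 10.0% lower, against 29.6% and 24.4% of all genes tested. Changes of at least 2-fold were seen for 6 risen members and 1 fallen member (20.0% and 3.33%), against 8.11% and 8.0% of all genes. These were 4 and 2 members without control replicate 3 (13.3% and 6.67%), against 8.31% and 8.32% of all genes. The median log2 fold change of the tested members was 0.63, against 0.03 over all genes. Without control replicate 3 the median was 0.31, with 10 members higher and 5 lower (33.3% and 16.7%, against 31.2% and 26.7% of all genes), 15 members in either direction against 57.9%. Every knockout lay above every control for 14 of the 32 members and below for 4 (13 and 4 of the 30 tested), against 34.9% and 29.4% of all genes tested. Without knockout replicate 3 there were 6 higher members, and without knockout replicate 2 there were 7. Fold changes on the log2(FPKM + 1) scale understate the change of low genes.

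**Figure D1:**
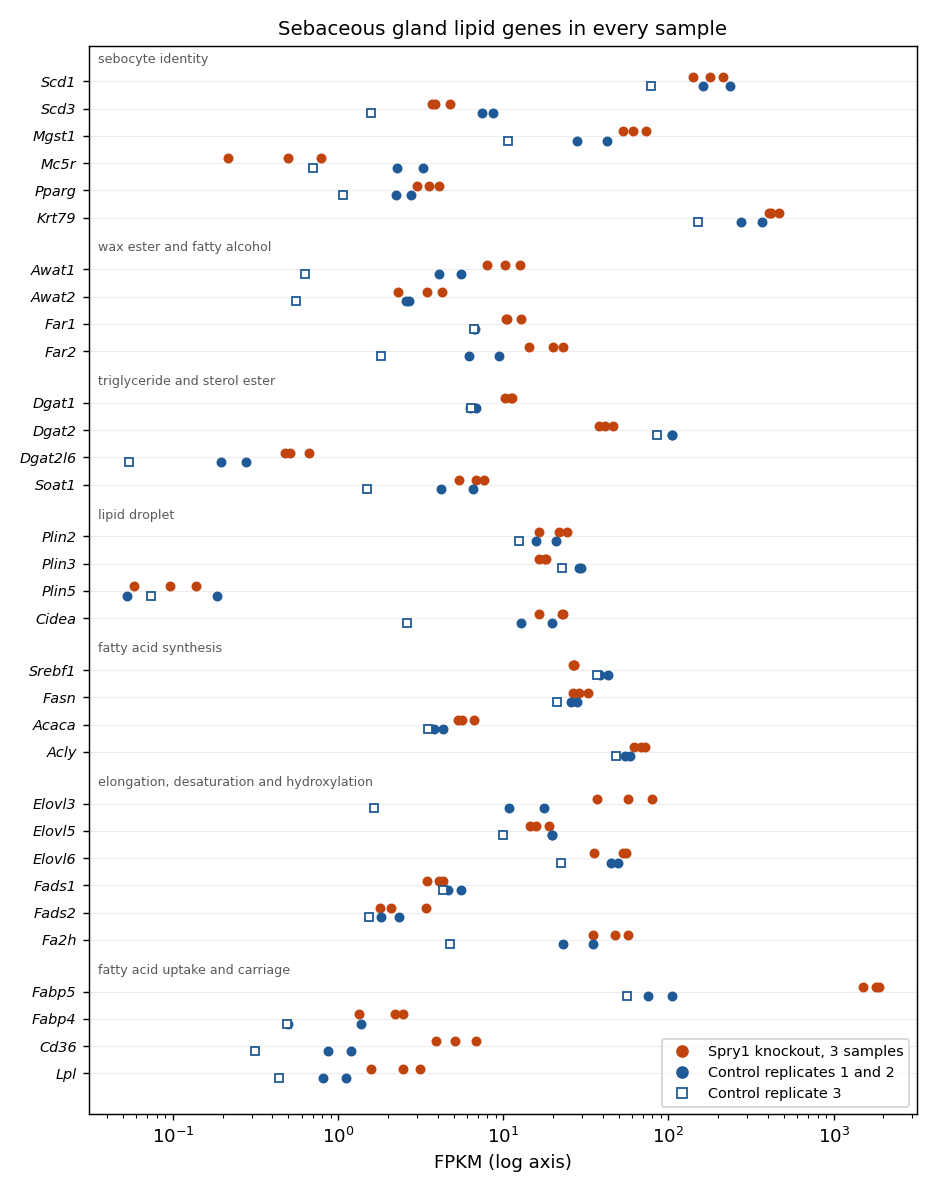
FPKM (log axis) of the 32 sebaceous gland lipid genes in every sample, with 1 point per sample, knockouts in orange above controls in blue and control replicate 3 as an open square. All knockouts lay above all controls for 14 genes and below them for 4, and the open square was the lowest control for 30 of the 32.

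Among the genes that mark sebocytes, the transferase *Mgst1* rose, the *Mc5r* and *Scd3* values were lower in the knockouts than in 2 of the 3 controls, and *Scd1* did not part the genotypes. *Scd1* encodes the stearoyl-CoA desaturase whose loss in mice leaves the sebaceous gland atrophic. *Scd1* read 141, 178 and 215 FPKM in the knockouts, against 161, 235 and 78.1 FPKM in the controls. The highest and the lowest of the 6 values were both controls, so the groups overlapped, with a log2 fold change of 0.29 ± 0.39 (SE; limma adjusted p = 0.56). Without control replicate 3 it was -0.15 (adjusted p = 0.605). In bulk tissue, fewer cells of a type and less RNA per cell cannot be told apart, which holds for each gene described here.

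*Scd3*, a neighbouring desaturase gene on the same chromosome, read 3.71, 3.85 and 4.78 FPKM in the knockouts and 8.70, 7.47 and 1.58 FPKM in the controls. The knockouts lay between control replicate 3 and the other 2 controls. The log2 fold change was -0.23 ± 0.47 (SE; limma adjusted p = 0.711) with all samples and -0.83 (adjusted p = 0.00228) without control replicate 3. Of the 50-base words in the exons of *Scd3*, 6.54% also occur in other genes, chiefly *Scd1* and *Scd2*, and for *Scd1* the share is 4.56%, so reads there could be split between copies.

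*Mc5r* encodes the melanocortin receptor through which melanocortin peptides stimulate sebum secretion in mice. It read 0.214, 0.496 and 0.785 FPKM in the knockouts and 2.27, 3.25 and 0.706 FPKM in the controls, from 17, 34 and 50 reads in the knockouts and 161, 232 and 54 in the controls. Knockout replicate 3 was above control replicate 3, and the other samples did not overlap. The difference missed the threshold with all samples, at -0.96 ± 0.34 (SE; limma adjusted p = 0.0503), and passed it without control replicate 3, at -1.33 (adjusted p = 0.00309).

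*Mgst1*, a membrane-bound glutathione transferase abundant in sebocytes, read 53.1, 72.7 and 61.2 FPKM in the knockouts and 27.8, 42.2 and 10.6 FPKM in the controls. Every knockout was above every control, and the log2 fold change was 1.36 ± 0.44 (SE; limma adjusted p = 0.0366). Without control replicate 3 it was 0.83 (adjusted p = 0.0162). The call was lost in 5 of 15 alternatives: with no filter (limma adjusted p = 0.0829) and without knockout replicate 1 (0.0689), knockout replicate 2 (0.101), knockout replicate 3 (0.0893) or control replicate 1 (0.0625).

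For 2 further markers the groups did not overlap although the test did not pass. *Pparg*, the nuclear receptor that drives sebocyte differentiation, read 2.98, 3.53 and 4.10 FPKM in the knockouts and 2.23, 2.76 and 1.08 FPKM in the controls, at 0.62 ± 0.23 (SE; limma adjusted p = 0.0544). *Krt79*, a keratin of the sebaceous duct and the follicle canal, read 465, 406 and 416 FPKM in the knockouts and 275, 370 and 151 FPKM in the controls, at 0.78 ± 0.30 (SE; limma adjusted p = 0.0669). Both passed without control replicate 2, at an adjusted p of 0.0275 for *Pparg* and 0.0185 for *Krt79*. Control replicate 3 was the lowest sample for both, and without it the log2 fold changes were 0.37 (adjusted p = 0.0595) for *Pparg* and 0.42 (adjusted p = 0.0588) for *Krt79*. *Krt79* had the highest mean of all members in the controls and the second highest in the knockouts.

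In the making of wax esters, the genes for both fatty acyl-CoA reductases and for the acyltransferase Awat1 rose, and *Awat2* did not pass the test. The reductases turn fatty acyl-CoA into fatty alcohols, and Far1 also supplies the alcohols of ether lipids. *Far1* read 10.4, 10.6 and 12.8 FPKM in the knockouts, against 6.78, 6.65 and 6.64 FPKM in the controls. The controls lay within a narrow range and every knockout was above them, with a log2 fold change of 0.67 ± 0.10 (SE; limma adjusted p = 0.00138). *Far2* read 14.4, 20.0 and 22.9 FPKM in the knockouts, against 6.22, 9.46 and 1.81 FPKM in the controls. Its groups did not overlap either, but its controls spread widely, and the log2 fold change was 1.73 ± 0.46 (SE; limma adjusted p = 0.0174). Without control replicate 3 the values were 0.66 (adjusted p = 0.0031) for *Far1* and 1.19 (adjusted p = 0.00696) for *Far2*. The *Far2* call was lost without knockout replicate 2 (0.0516) or knockout replicate 3 (0.0617). Exons of *Far2* overlap the opposite-strand genes *Ergic2* and *Far2os2* over 12.6% of their length, and reads there cannot be told apart without strand.

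The acyltransferases Awat1 and Awat2 join a fatty alcohol to a fatty acid. *Awat1* read 7.91, 10.3 and 12.6 FPKM in the knockouts, against 4.10, 5.55 and 0.628 FPKM in the controls. Every knockout exceeded every control, with a log2 fold change of 1.55 ± 0.50 (SE; limma adjusted p = 0.0348), and control replicate 3 stood at 13.0% of the mean of the other 2 controls. Without that sample the log2 fold change was 0.94 (adjusted p = 0.00932). The call was lost in 6 of 15 alternatives, among them those without knockout replicate 1 (0.0602), knockout replicate 2 (0.0832) or knockout replicate 3 (0.105).

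*Awat2* read 2.29, 3.47 and 4.26 FPKM in the knockouts, against 2.68, 2.57 and 0.555 FPKM in the controls. Knockout replicate 1 lay below control replicates 1 and 2, so the groups overlapped, and the log2 fold change was 0.64 ± 0.36 (SE; limma adjusted p = 0.17). Without control replicate 3 it was 0.23 (adjusted p = 0.355). These values rest on 98, 128 and 149 reads in the knockouts and 104, 100 and 23 in the controls. *Dgat2l6*, the third acyltransferase gene of the X-linked group, lay below the filter and was not tested. It read 0.514, 0.474 and 0.667 FPKM in the knockouts and 0.278, 0.196 and 0.0541 FPKM in the controls, from 49, 39 and 52 reads in the knockouts and 24, 17 and 5 in the controls, with every knockout above every control. In the fit with no filter its log2 fold change was 0.40 (limma adjusted p = 0.0259).

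The enzymes of the last step of triglyceride synthesis went in opposite directions, with *Dgat1* higher and *Dgat2* lower in the knockouts. *Dgat2* read 38.1, 41.3 and 46.0 FPKM in the knockouts, against 105, 105 and 85.5 FPKM in the controls. Every knockout was below every control, and the means were 41.8 ± 3.98 FPKM in the knockouts and 98.3 ± 11.1 FPKM in the controls (SD, n = 3 each), with a log2 fold change of -1.21 ± 0.12 (SE; limma adjusted p = 0.000261). *Dgat1* read 10.2, 11.3 and 11.1 FPKM in the knockouts, against 6.25, 6.84 and 6.35 FPKM in the controls. Every knockout was above every control, with a log2 fold change of 0.67 ± 0.08 (SE; limma adjusted p = 0.000609). Both genes varied little within a genotype: control replicate 3 stood at 81.7% of the other controls for *Dgat2* and at 97.0% for *Dgat1*. Without it the log2 fold changes were -1.31 (adjusted p = 0.00024) and 0.66 (adjusted p = 0.00125). Both calls held under all 15 alternatives.

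*Soat1*, the enzyme that esterifies cholesterol in the endoplasmic reticulum, read 5.39, 6.88 and 7.62 FPKM in the knockouts and 4.17, 6.57 and 1.50 FPKM in the controls. Knockout replicate 1 lay below control replicate 2, and the log2 fold change was 0.72 ± 0.38 (SE; limma adjusted p = 0.15). Without control replicate 2 it passed, at an adjusted p of 0.034, and without control replicate 3 it was 0.28 (adjusted p = 0.281).

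Of the genes for proteins on lipid droplets, 1 of 3 tested passed, against 54.0% of all genes tested. *Plin3*, a broadly expressed droplet coat protein, fell: it read 18.0, 18.1 and 16.4 FPKM in the knockouts and 29.6, 28.7 and 22.7 FPKM in the controls, with no overlap and a log2 fold change of -0.59 ± 0.12 (SE; limma adjusted p = 0.00508). *Plin2*, the coat protein that follows the lipid load of most cells, read 16.5, 21.6 and 24.3 FPKM in the knockouts and 15.8, 20.8 and 12.4 FPKM in the controls. Its groups overlapped, at 0.34 ± 0.21 (SE; limma adjusted p = 0.199), or 0.17 (adjusted p = 0.461) without control replicate 3. *Cidea*, which promotes droplet fusion and enlargement, read 16.4, 22.5 and 22.9 FPKM in the knockouts and 12.7, 19.7 and 2.60 FPKM in the controls. Control replicate 3 was at 16.0% of the other controls, and the log2 fold change of *Cidea* was 1.09 ± 0.60 (SE; limma adjusted p = 0.164), or 0.34 (adjusted p = 0.224) without that sample. *Plin5*, a droplet protein of oxidative tissues, had 4, 5 and 2 reads in the knockouts and 2, 7 and 3 in the controls and was not tested.

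Genes of fatty acid synthesis differed by less than 2-fold, with 2 of 4 higher and 1 lower, against 29.6% and 24.4% of all genes tested. *Srebf1*, the transcription factor that switches on the lipogenic enzymes, fell: 26.9, 26.8 and 26.3 FPKM in the knockouts and 38.3, 42.8 and 37.2 FPKM in the controls, a log2 fold change of -0.54 ± 0.08 (SE; limma adjusted p = 0.00157). Of the genes it is known to induce, *Acaca*, *Acly* and *Fasn* were not called lower under any alternative. *Pnpla3*, a further target described below, was called lower under all 15 of them, at -1.68 with all samples (limma adjusted p = 0.000129). The targets named here are not a full list. Other lipogenic genes went both ways: *Gpam* (log2 fold change -0.99) and *Me1* (-1.60) fell, while *Slc25a1* (0.76) and *Mid1ip1* (0.55) rose. *Scd1* and *Elovl6* were not called. The part of *Srebf1* in all these genes was not tested. *Acaca*, which makes malonyl-CoA, rose: 5.32, 6.64 and 5.64 FPKM in the knockouts and 3.80, 4.29 and 3.51 FPKM in the controls, a log2 fold change of 0.49 ± 0.11 (SE; limma adjusted p = 0.00812). *Acly*, which makes cytosolic acetyl-CoA from citrate, read 61.8, 72.0 and 68.0 FPKM in the knockouts and 54.8, 58.5 and 48.4 FPKM in the controls. It passed with all samples, at 0.32 ± 0.10 (SE; limma adjusted p = 0.037). The *Acly* call was lost in 10 of 15 alternatives. Among them were the fits without control replicate 3 (0.0637), control replicate 1 (0.0825), knockout replicate 2 (0.118) or knockout replicate 3 (0.0883). *Fasn*, fatty acid synthase, read 26.3, 32.6 and 28.8 FPKM in the knockouts and 25.8, 27.9 and 21.0 FPKM in the controls, with overlapping groups and a log2 fold change of 0.23 ± 0.13 (SE; limma adjusted p = 0.179), or 0.11 (adjusted p = 0.392) without control replicate 3. Under TPM scaling, *Acaca* did not pass (limma adjusted p = 0.0931), *Acly* was at 0.04 (adjusted p = 0.719) and *Fasn* was at -0.04. Of the 50-base words in *Acaca* exons, 30.4% occur in other genes, chiefly *Gm5182*.

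Among the enzymes that lengthen, desaturate or hydroxylate fatty acids, *Elovl3* alone of 6 passed the test, against 54.0% of all genes tested. Elovl3 lengthens saturated and monounsaturated fatty acids to the very long chains of sebum, and mice without it have altered hair lipids. *Elovl3* (ENSMUSG00000038754; chr19:46131897-46135694, plus strand) read 37.0, 56.6 and 79.5 FPKM in the knockouts, against 10.8, 17.5 and 1.65 FPKM in the controls. Every knockout was above every control, and the spread was wide in both genotypes: knockout replicate 1 stood at 54.4% of the other knockouts and control replicate 3 at 11.6% of the other controls. The means were 57.7 ± 21.2 FPKM in the knockouts and 9.98 ± 7.97 FPKM in the controls (SD, n = 3 each), a 5.78-fold difference, and the log2 fold change was 2.75 ± 0.69 (SE; limma adjusted p = 0.0141). Without control replicate 3 the log2 fold change was 1.93 (adjusted p = 0.0048), and without knockout replicate 3 the gene no longer passed (0.0529).

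*Fa2h*, the hydroxylase of fatty acids in sphingolipids, came close to parting the groups. It read 34.8, 47.3 and 56.6 FPKM in the knockouts and 23.1, 34.9 and 4.78 FPKM in the controls, so that only knockout replicate 1 and control replicate 2 overlapped, by less than 0.1 FPKM. Its log2 fold change was 1.44 ± 0.63 (SE; limma adjusted p = 0.0943). It passed without control replicate 2 (0.0345), and without control replicate 3 it was 0.66 (adjusted p = 0.0644).

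The other 4 enzymes had smaller differences. *Elovl6*, which lengthens palmitate to stearate, read 35.7, 52.9 and 55.5 FPKM in the knockouts and 44.7, 49.8 and 22.3 FPKM in the controls, at 0.35 ± 0.32 (SE; limma adjusted p = 0.382). *Elovl5*, an elongase of polyunsaturated fatty acids, read 15.8, 14.4 and 18.8 FPKM in the knockouts and 19.8, 19.7 and 10.0 FPKM in the controls, at 0.04 ± 0.26 (SE; limma adjusted p = 0.905). In both, control replicate 3 was the lowest of the 6 samples and the groups overlapped. Without it the log2 fold changes were -0.000656 (adjusted p = 0.998) for *Elovl6* and -0.26 (adjusted p = 0.0988) for *Elovl5*. *Fads1*, a desaturase of polyunsaturated fatty acids, read 4.30, 3.47 and 4.06 FPKM in the knockouts and 5.51, 4.60 and 4.34 FPKM in the controls. Every *Fads1* value of the knockouts was below every control value, yet the difference did not pass, at -0.23 ± 0.11 (SE; limma adjusted p = 0.126). *Fads1* was called lower under TPM scaling, at -0.46 (limma adjusted p = 0.0216), and when scaled by recovered reads. *Fads2*, its neighbour and the desaturase of the preceding step, read 1.78, 2.10 and 3.39 FPKM in the knockouts and 1.82, 2.32 and 1.53 FPKM in the controls, at 0.23 ± 0.20 (SE; limma adjusted p = 0.363), or 0.13 (adjusted p = 0.615) without control replicate 3.

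**Figure D2:**
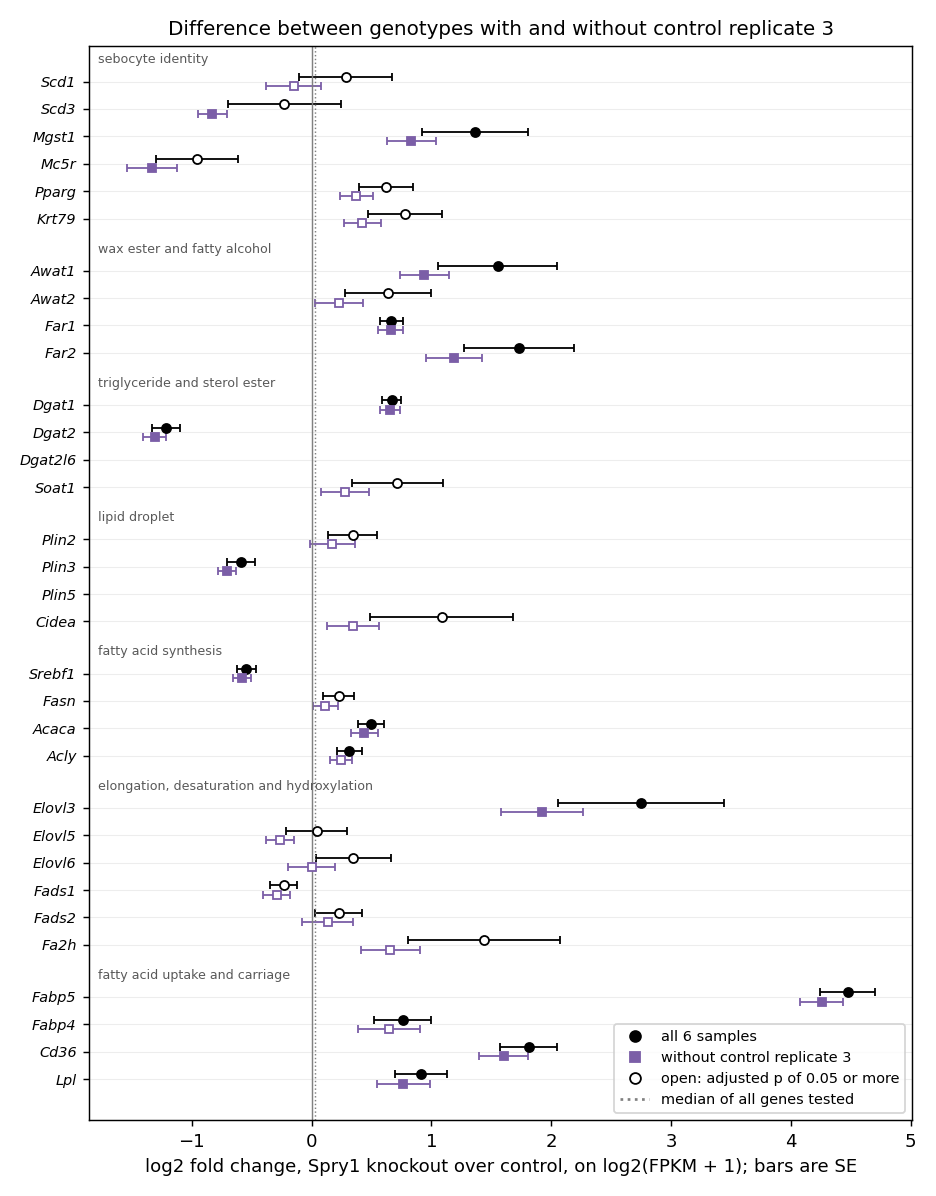
Log2 fold change of each tested member, Spry1 knockout over control on log2(FPKM + 1), with SE bars, for all 6 samples (black circles) and without control replicate 3 (purple squares); filled symbols passed an adjusted p of 0.05. Without that control, *Scd3* and *Mc5r* were called lower, *Acly* and *Fabp4* were no longer called, and *Elovl3* was at 1.93 in place of 2.75.

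All 4 genes for the uptake and carriage of fatty acids passed as higher in the knockouts, against 29.6% of all genes tested, led by *Fabp5*. Fabp5, the epidermal fatty acid binding protein, carries fatty acids in keratinocytes and sebocytes. *Fabp5* (ENSMUSG00000027533; chr3:10012548-10016607, plus strand) read 1505, 1797 and 1882 FPKM in the knockouts, against 75.6, 105 and 56.4 FPKM in the controls. Its means were 1728 ± 198 FPKM in the knockouts and 78.9 ± 24.3 FPKM in the controls (SD, n = 3 each), a 21.9-fold difference. The log2 fold change was 4.47 ± 0.23 (SE; limma adjusted p = 2.64e-05), or 4.26 (adjusted p = 5.66e-05) without control replicate 3. *Fabp5* ranked 1 among the members by mean level in the knockouts and 4 in the controls. Pseudogenes and *Fabp5l2* share 5.48% of its 50-base words. Summed over all members, the level was 2567, 2953 and 3125 FPKM in the knockouts and 978, 1243 and 597 FPKM in the controls, and without *Fabp5* it was 1062, 1156 and 1243 FPKM in the knockouts and 902, 1139 and 540 FPKM in the controls, where the groups overlapped.

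*Cd36*, a membrane importer of long-chain fatty acids, read 3.91, 5.09 and 6.79 FPKM in the knockouts and 0.871, 1.19 and 0.314 FPKM in the controls. Every knockout was above every control, a 6.65-fold difference between means, with a log2 fold change of 1.81 ± 0.24 (SE; limma adjusted p = 0.000936), or 1.60 (adjusted p = 0.00138) without control replicate 3. The gene had 282, 317 and 401 reads in the knockouts and 57, 78 and 22 in the controls. *Lpl*, the lipase that frees fatty acids from lipoproteins, read 1.57, 2.45 and 3.13 FPKM in the knockouts and 0.806, 1.11 and 0.441 FPKM in the controls. Its groups did not overlap, and the log2 fold change was 0.91 ± 0.22 (SE; limma adjusted p = 0.0118), or 0.77 (adjusted p = 0.0257) without control replicate 3. *Fabp4*, the fatty acid binding protein of fat cells, macrophages and small vessels, read 1.33, 2.46 and 2.19 FPKM in the knockouts and 1.37, 0.500 and 0.492 FPKM in the controls. Knockout replicate 1 lay below control replicate 1, so the *Fabp4* groups overlapped, at 0.76 ± 0.24 (SE; limma adjusted p = 0.0328). Its call was lost in 9 of 15 alternatives. Among them were the fits without control replicate 3 (0.0764), control replicate 2 (0.0927), knockout replicate 2 (0.1) or knockout replicate 3 (0.0969).

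Fat cells, vessels and macrophages also express the uptake genes, and their markers were read in the same samples. The 8 adipocyte markers summed to 0.952 to 2.99 FPKM in the knockouts and 4.88 to 8.86 FPKM in the controls, with 4 under 1 FPKM in every sample and *Lep* at 0 in every knockout. *Adrb3* and *Car3* fell, while *Cidec*, which had too low a mean to be tested, read 0.536, 0.497 and 1.05 FPKM in the knockouts and 0.355, 0.206 and 0.194 FPKM in the controls. The 7 endothelial markers summed to 1.68 to 2.57 FPKM in the knockouts and 1.82 to 5.69 FPKM in the controls, and 4 of them were under 1 FPKM everywhere. None of the 7 reached the mean needed for testing, and *Egfl7* read 0.709, 0.998 and 0.628 FPKM in the knockouts and 0.322, 0.229 and 0.301 FPKM in the controls. For *Cidec* and *Egfl7* every knockout was above every control, and with no filter on low values *Egfl7* passed as higher (limma adjusted p = 0.0213) and *Cidec* did not (adjusted p = 0.0783). *Adipoq*, the hormone gene that defines fat cells, reached at most 0.0880 FPKM in the knockouts and 0.358 FPKM in the controls. Every knockout was below every control for *Adipoq*, which passed as lower with no filter (limma adjusted p = 0.0229). *Cfd* was not called with all samples (adjusted p = 0.242) and was called lower without control replicate 3 (adjusted p = 0.0289). The 7 macrophage markers summed to 62.3 to 116 FPKM in the knockouts and 32.5 to 48.7 FPKM in the controls, of which *C1qa*, *C1qb*, *C1qc* and *Mrc1* rose while *Csf1r* and *Adgre1* fell, and none was at 0 in every sample. Of all genes tested, 29.6% were called higher and 24.4% lower. The part of fat cells, vessels and macrophages in the uptake genes was not tested.

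The *Fabp5* difference stood beside changed keratinocyte markers. The 6 basal keratinocyte markers summed to 16630 to 20710 FPKM in the knockouts and 6274 to 7919 FPKM in the controls, with 2 higher and 3 lower by the test. *Krt14* and *Krt5* made up most of the sum and rose, with log2 fold changes of 2.04 and 0.80. *Col17a1* (-1.49), *Itga6* (-0.45) and *Trp63* (-0.37) fell. The 6 suprabasal markers summed to 5181 to 7400 FPKM in the knockouts and 6859 to 7355 FPKM in the controls, with 3 higher and 2 lower. *Flg* (3.53), *Krt1* (1.94) and *Ivl* (0.65) rose, while *Dsg1a* (-1.94) and *Krt10* (-0.92) fell. For both lists the counts stand against 29.6% higher and 24.4% lower of all genes tested. The 8 hair follicle markers, nearly all of it *Krt15*, summed to 670 to 943 FPKM in the knockouts and 2929 to 3762 FPKM in the controls. Of the 3 tested, *Krt15* fell, at -2.10 (limma adjusted p = 0.000175). *Lhx2*, at -0.18 (adjusted p = 0.56), and *Cd34*, at 0.49 (adjusted p = 0.0971), were not called. Among those not tested, *Krt71* was above every control in every knockout and *Krt35* was at 0 in every knockout. The 2 sebocyte markers, *Scd1* and *Awat2*, summed to 143 to 220 FPKM in the knockouts and 78.7 to 238 FPKM in the controls. The parts of these cell types in the lipid genes were not tested.

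Markers of skeletal muscle and fibroblasts, cells of the layers beneath the epidermis, were read as well. The 6 muscle markers summed to 3.71 to 5.54 FPKM in the knockouts and 16.2 to 61.4 FPKM in the controls, and 5 of 5 tested fell. The 6 fibroblast markers summed to 1.71 to 5.79 FPKM in the knockouts and 5.50 to 13.0 FPKM in the controls, with 2 of 4 tested lower, a count of 0 without knockout replicate 1 and of 4 without knockout replicate 3. Of all genes tested, 24.4% were called lower. The part of muscle cells and fibroblasts in the lipid genes was not tested either.

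The members varied together within each genotype. Control replicate 3 was the lowest control for 30 of the 32 members, against 43.7% of all genes tested, and was under 50% of the mean of the other 2 controls for 17 members, against 4.92% of all genes. Its median was 47.1% of the other controls over the members and 98.1% over all genes. The low level was not particular to the members. Over the cell type marker lists the median ran from 29.95% for endothelial cells to 164% for fibroblasts, with skeletal muscle at 31.4%. Nor was it shared by all lipid genes: over the 5 related lists described below it ran from 79.3% to 129.5%. Knockout replicate 1 was the lowest knockout for 25 of 32 members, against 32.5% of all genes, with medians of 78.8% over the members and 99.5% over all genes. Both held at once for 24 members, against 16.4% of all genes. The median coefficient of variation of the members was 17.5% in the knockouts and 42.6% in the controls, or 20.0% in control replicates 1 and 2, and over all genes it was 9.73% and 12.5%, or 6.47% in those 2 controls.

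The 17 members that were low in control replicate 3 were all 6 sebocyte markers, *Awat1*, *Awat2*, *Far2*, *Dgat2l6*, *Soat1*, *Cidea*, *Elovl3*, *Elovl6*, *Fa2h*, *Cd36* and *Lpl*. *Elovl3* stood at 11.6% of the other controls there, *Awat1* at 13.0%, *Cidea* at 16.0%, *Fa2h* at 16.5% and *Scd3* at 19.6%. All knockouts exceeded all controls for 9 of these 17 and overlapped with them for 8. The other 15 members, whose median in control replicate 3 was 78.2% of the other controls, included *Far1*, *Dgat1*, *Dgat2*, *Srebf1* and *Plin3*. Of these 15, 5 lay above all controls, 4 below and 6 overlapped. Over all genes tested, 34.9% lay above all controls and 29.4% below. The split itself uses a control sample, so these counts are a description.

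**Figure D3:**
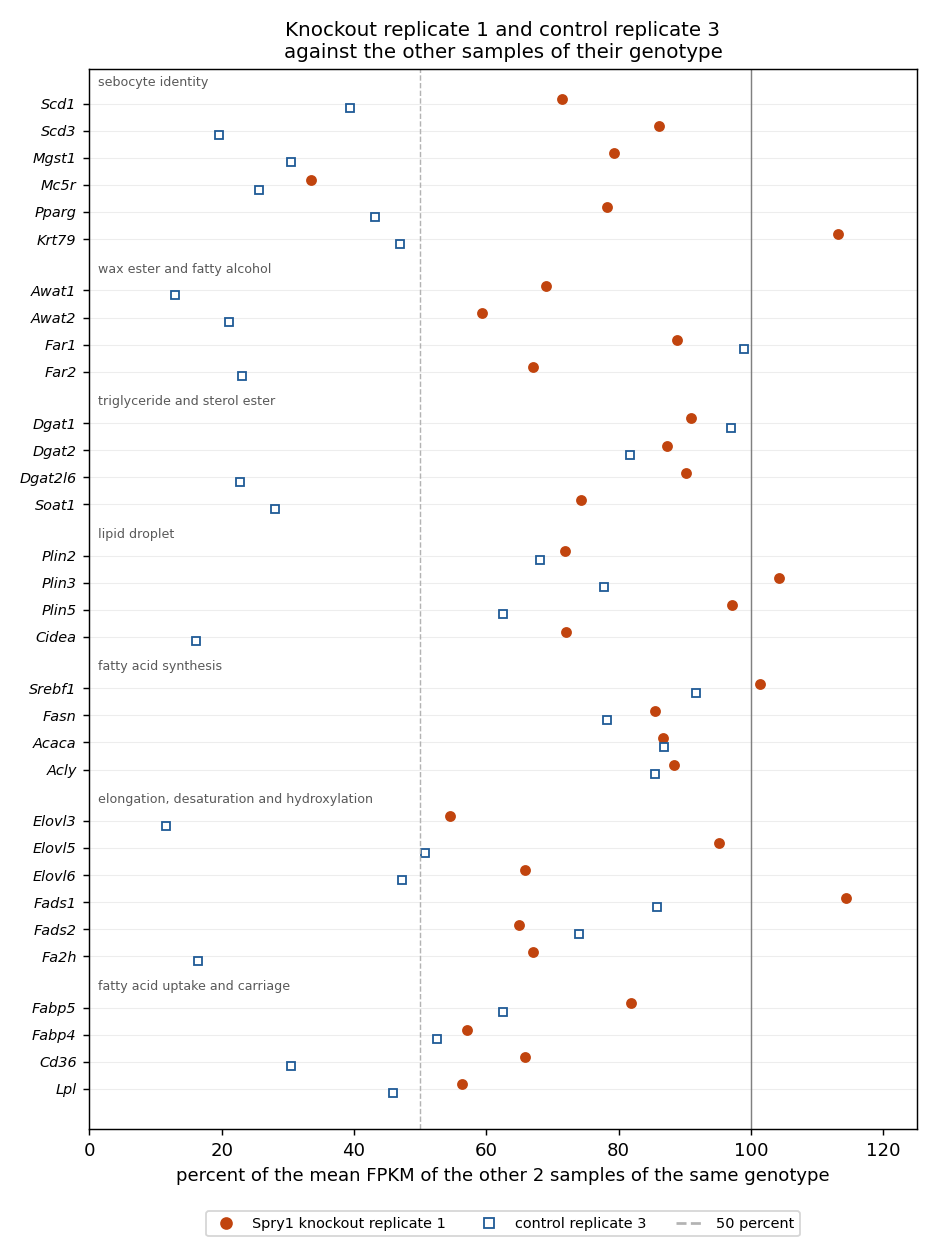
Level of each member in knockout replicate 1 (orange circles) and control replicate 3 (open blue squares) as a percent of the mean FPKM of the other 2 samples of the same genotype; the solid line marks 100% and the dashed line 50%. Control replicate 3 lay under 50% for 17 of the 32 members, down to 11.6% for *Elovl3*, while *Far1* and *Dgat1* stayed near 100%.

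Each member was also divided by *Scd1* and by *Awat2* within its own sample, a step chosen after the values had been seen. With 3 samples against 3, the exact permutation test (two-sided) cannot go below p = 0.1, which every ratio without overlap reaches. Per *Scd1*, 13 of 31 members were higher in all knockouts, 2 were lower and 16 overlapped. Per *Awat2*, 6 were higher, 7 lower and 18 overlapped. These ratios were not formed for all genes, so the counts have no background share and only describe the members. Undivided, every knockout lay above every control for 34.9% of all genes tested and below for 29.4%. Under both denominators *Awat1*, *Cd36*, *Dgat2l6*, *Elovl3*, *Fabp5* and *Far2* were higher, *Dgat2* and *Mc5r* were lower, and 10 members overlapped, of 30 that have both ratios.

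The *Elovl3* to *Scd1* ratio was 0.264, 0.318 and 0.369 in the knockouts and 0.0668, 0.0745 and 0.0211 in the controls, 6.65-fold higher by geometric means. Relative to *Awat2* it was 16.2, 16.3 and 18.7 in the knockouts and 4.01, 6.82 and 2.97 in the controls, 3.93-fold higher. The knockout ratios lay close together while *Elovl3* itself ranged from 37.0 to 79.5 FPKM over the same 3 samples. The control ratios stayed spread, from 0.0211 to 0.0745 per *Scd1*. Over the 31 members divided, the median SD of log2 values in the controls was 0.68 undivided, 0.63 per *Scd1* and 0.72 per *Awat2*. The *Mc5r* to *Awat2* ratio was 0.0934, 0.143 and 0.184 in the knockouts and 0.844, 1.26 and 1.27 in the controls, 8.20-fold lower in the knockouts, and per *Scd1* it was 4.84-fold lower. Control replicate 3, the lowest control for *Mc5r* itself, was level with control replicate 2 in the *Mc5r* to *Awat2* ratio. Its ratio came from 54 *Mc5r* reads and 23 *Awat2* reads, and every ratio to *Awat2* in control replicate 3 rests on those 23 reads.

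*Scd3* behaved differently under the 2 denominators. Per *Awat2* it was 1.62, 1.11 and 1.12 in the knockouts and 3.24, 2.90 and 2.85 in the controls, 2.37-fold lower in the knockouts with no overlap, while per *Scd1* the groups overlapped. *Cd36* was 6.11-fold higher per *Scd1* and 3.61-fold per *Awat2*, *Far2* 3.24-fold and 1.91-fold, and *Awat1* 3.41-fold and 2.01-fold.

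**Figure D4:**
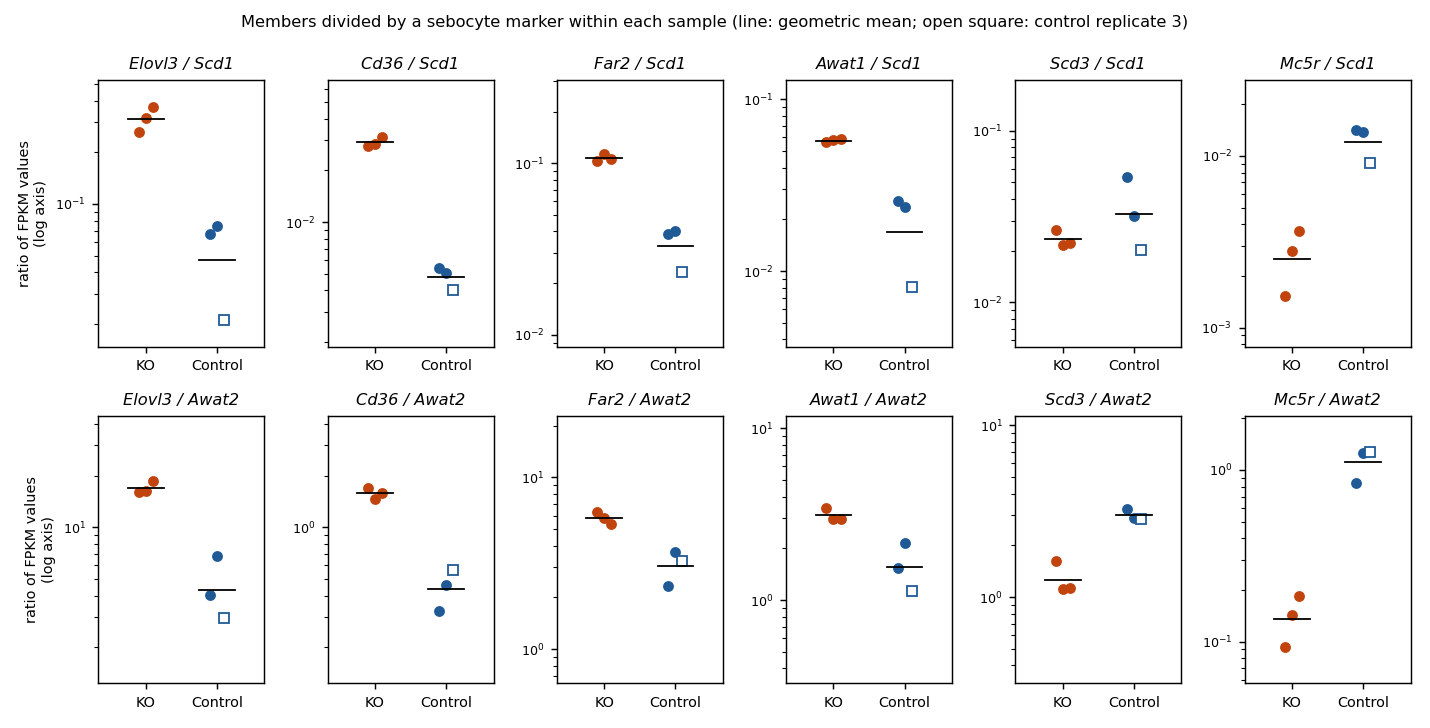
Ratio of FPKM values within each sample (log axis) for 6 members, divided by *Scd1* (top row) and *Awat2* (bottom row), with knockouts left of controls, a line at the geometric mean and control replicate 3 as an open square. *Elovl3*, *Cd36*, *Far2* and *Awat1* did not overlap in either row and were higher in the knockouts, *Mc5r* was lower in both rows, and *Scd3* was lower without overlap in the bottom row only.

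Genes that surround the members in the same pathways were read as 5 further lists, whose counts stand against 29.6% higher and 24.4% lower of all genes tested. Of the sebaceous lineage and progenitor genes, 7 of 9 were tested, none rose and 3 fell (42.9%), with a median log2 fold change of -0.016, and without control replicate 3 *Myc* was called higher (adjusted p = 0.000623). *Lrig1*, which marks stem cells of the upper follicle that feed the gland, read 17.4, 17.6 and 17.1 FPKM in the knockouts and 31.8, 29.6 and 39.8 FPKM in the controls, at -0.91 (adjusted p = 0.000825), and *Lgr6*, a marker of a neighbouring stem cell pool, was at -1.08 (adjusted p = 0.00973). The remaining one, *Gata6*, a factor of the sebaceous duct, was at -0.69 (adjusted p = 0.0378) and lost its call when any 1 sample other than control replicate 3 was left out (limma adjusted p up to 0.114). Every knockout was above every control for 3 of the 9 genes and below for 3, against 34.9% and 29.4% of all genes tested. Those above were *Prdm1* (limma adjusted p = 0.177) and *Sox9* (0.0597), neither called, and *Muc1*, which was not tested. With no filter *Muc1* passed as higher (limma adjusted p = 0.0265).

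Of 14 transcription regulators of lipid genes, 11 were tested, 6 rose and 2 fell (54.5% and 18.2%, against 29.6% and 24.4% of all genes), with a median of 0.34. *Ppard*, the peroxisome proliferator-activated receptor that predominates in keratinocytes, read 12.7, 14.5 and 13.8 FPKM in the knockouts and 3.72, 4.17 and 4.27 FPKM in the controls, at 1.53 (adjusted p = 4.17e-05). *Ppara*, the receptor that drives fatty acid oxidation, read 0.480, 0.616 and 0.460 FPKM in the knockouts and 3.73, 4.42 and 4.68 FPKM in the controls, at -1.79 (adjusted p = 6.71e-05). With *Pparg* not called, the receptors of this family went in different directions in the same samples. *Cebpb*, a transcription factor of differentiating sebocytes and keratinocytes, was at 0.92 (adjusted p = 0.00458). The other fallen gene, *Nr1h2*, an oxysterol receptor named after its value was seen, lost its call when any 1 sample was left out.

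In triglyceride assembly, droplets and lipolysis, 13 of 21 genes were tested, 3 rose and 2 fell (23.1% and 15.4%), with a median of 0.16. *Pnpla3*, a droplet protein and target of Srebf1, read 2.12, 2.72 and 1.88 FPKM in the knockouts and 10.5, 8.12 and 9.45 FPKM in the controls, at -1.68 (adjusted p = 0.000129). *Gpam*, the acyltransferase of the first step of glycerolipid synthesis, read 7.09, 8.65 and 7.42 FPKM in the knockouts and 16.0, 16.0 and 16.7 FPKM in the controls, at -0.99 (adjusted p = 0.000213). *Hilpda*, a hypoxia-inducible inhibitor of lipolysis, was at 0.77 (adjusted p = 0.00873). *Gpam*, at the first step, and *Dgat2*, at the last, both fell, while *Dgat1*, also at the last step, rose at 0.67 (limma adjusted p = 0.000609). *Agpat3* of this list rose too, at 0.57 (adjusted p = 0.0117, or 0.0528 under TPM scaling).

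Of 19 further genes of fatty acid synthesis, activation and elongation, 17 were tested, 7 rose and 6 fell (41.2% and 35.3%, against 29.6% and 24.4% of all genes), with a median of -0.03. *Me1*, the malic enzyme that supplies NADPH for lipogenesis, read 18.1, 22.0 and 26.4 FPKM in the knockouts and 73.0, 73.1 and 60.8 FPKM in the controls, at -1.60 (adjusted p = 0.00023). *Acsbg1* and *Acsl1*, which activate long-chain fatty acids to acyl-CoA, were at -1.32 (adjusted p = 0.000272) and -1.15 (adjusted p = 0.000339). Of 12 genes of peroxisomal ether lipid synthesis and fatty acid oxidation, all 12 were tested, 4 rose and 3 fell (33.3% and 25%), or 5 fell without control replicate 3, with a median of -0.07. *Acadl*, a mitochondrial acyl-CoA dehydrogenase, was at 0.75 (adjusted p = 0.00095), *Agps*, which puts the fatty alcohol into ether lipids, at 0.60 (adjusted p = 0.00114), and *Acaa2*, a thiolase of mitochondrial oxidation, at -0.52 (adjusted p = 0.00516). Of the 15 genes of these 5 lists named by the lowest p, 14 kept their calls under all 15 alternatives, and *Gata6* did not.

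**Figure D5:**
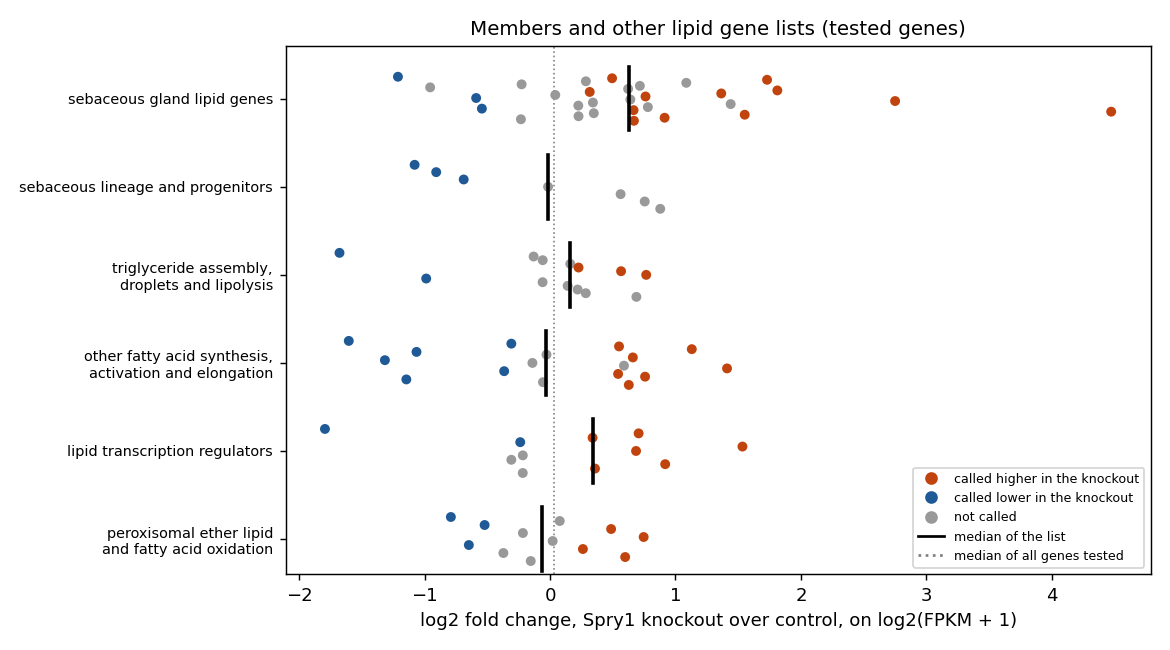
Log2 fold change (Spry1 knockout over control, on log2(FPKM + 1)) of each tested gene of the sebaceous gland lipid set (top row) and of 5 lists of related genes, with genes called higher in orange, called lower in blue and not called in grey; the bar is the median of each list and the dotted line the median of all genes tested. The top row has the highest median, 0.63, and the row of peroxisomal ether lipid and fatty acid oxidation genes the lowest, -0.07. With control replicate 3 left out, the highest median was that of the transcription regulators, 0.37, against 0.31 for the top row, and the lowest that of the sebaceous lineage genes, -0.16.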

How the data were processed

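RNA-seq of back epidermis covered 3 Spry1_KO and 3 Control samples. The authors deposited 1 table of FPKM values, the unit of all levels here. HISAT2 2.0.5, featureCounts 1.5.0-p3 and GRCm38 (mm10) are named per the submitters' processing notes. Which annotation, strand setting and FPKM formula the authors used is not given in the sources used here. Gene positions came from GENCODE M21 by gene ID (54495 IDs matched, and 27 names turned into dates were replaced). FPKM times exon length gave whole reads, within 0.1 read, for 97.0% to 97.2% of values, and the depth was 18383321 to 21024714 recovered reads per sample.

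Log2(FPKM + 1) values were tested in limma 3.58.1 under R 4.3.3, two-sided, with a variance trend and genotype as the only term. The 12629 genes averaging 1 FPKM or more entered, with Benjamini-Hochberg adjustment over all of them and a threshold of 0.05. The script was tested on simulated data. Alternatives covered the pseudocount (0.1), no filter, median-ratio and TPM scaling, array weights, a replicate block, each sample left out, control replicate 3 and knockout replicate 2 left out together, limma-voom on recovered reads and, added after seeing the data, scaling by recovered reads. The members, lists and tests were chosen with earlier results of these data known. All members are given with values, and of each related list up to 3 called genes, by lowest p, are named; 1 gene of the sebaceous lineage list is not reported here and is left out of its counts. Promoter windows came from RefSeq (GRCm38.p6). Plots used matplotlib 3.10.9 and Python 3.11.15.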

Additional observations from a re-analysis of the deposited data

How the results depend on the processing

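Of the 15 called members, 7 kept their direction and call under all 15 alternatives: *Fabp5*, *Cd36*, *Dgat2*, *Srebf1*, *Plin3*, *Far1* and *Dgat1*. With each sample left out in turn, the genes called numbered 5647 to 7313 (6815 with all), the members called higher 6 to 15 (12), those called lower 3 to 5 (3), and their median log2 fold change was 0.31 to 0.71 (0.63). Members called lower numbered 5 with TPM scaling, 5 when scaled by recovered reads, and 5 without control replicate 3 and knockout replicate 2 together, where the median was 0.26. The 5 members whose direction turned had not been called. *Elovl5* was at -0.0073 with median-ratio scaling, -0.22 with TPM scaling, -0.23 with array weights, -0.083 scaled by recovered reads and -0.18 without both samples, and ran from -0.26 to 0.20 with 1 sample left out. *Scd1* was at -0.10 with array weights and -0.16 without both samples, and ran from -0.15 to 0.64. *Elovl6* was at -0.082 without both samples and ran from -0.000656 to 0.56. *Scd3* ran from -0.83 to 0.12 with 1 sample left out, and *Fasn* was at -0.042 with TPM scaling. Beyond the sample or scaling named, the cause was not tested.

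There was no sign that the replicate numbers pair the samples (correlations of same-numbered deviations -0.0981, -0.111 and -0.125). With 3 samples per genotype these correlations cannot exclude a pairing. With the replicate block, 5834 genes, 9 higher members and 3 lower members were called. *Lpl* was lost without both samples named above (adjusted p = 0.0598), and *Mc5r* was gained in 7 alternatives. *Mc5r*, *Pparg*, *Awat1*, *Awat2*, *Dgat2l6*, *Plin5*, *Cidea*, *Elovl3*, *Fads2*, *Fabp4*, *Cd36* and *Lpl*, 12 members, had under 100 reads in at least 1 sample, which limits their precision.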
